A study of Mus musculus with 6 samples.

Results

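The genes described here are 10 genes that dermal fibroblasts express, chosen by name: Dcn, Lum, Vcan, Dpt, Fbn1, Mfap5, Postn, Sparc, Pdgfra and Pdgfrb. They cover non-collagen matrix proteins and both receptors for platelet-derived growth factor (PDGF), and each matched a single row among the 54532 genes of the count table. The table holds 6 Smart-seq2 libraries, a method that copies full-length cDNA from little RNA. All cells came from the dorsal skin of C57BL/6 mice aged 4 weeks, of both sexes, whose epidermis had been separated from the dermis by enzyme and dissociated. The NCAM-enriched group (3 libraries, labelled Merkel cells) was captured on beads against polysialylated NCAM, a surface molecule of Merkel cells, and then sorted as NCAM-positive and DAPI-negative. The bulk skin group (3 libraries, labelled total/bulk skin) was sorted as DAPI-negative with no NCAM selection from what the methods call bulk epidermis, and every library was made from 500 sorted events. No genetic or drug treatment was applied to either group. Nothing in the labels or methods ties the replicates to separate mice, so the p-values below measure only the spread between these libraries.

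Fibroblasts build the dermal matrix from collagen fibrils, which small leucine-rich proteoglycans such as decorin and lumican coat and space, and from microfibrils, the fibrillin filaments on which elastic fibres form. Matricellular proteins such as periostin and SPARC sit in that matrix and modulate how cells attach to it and how collagen is assembled. Cells of the mesenchyme respond to PDGF through PDGFRα, a common marker of fibroblasts, and PDGFRβ, which pericytes also carry.

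Library totals ran from 1343190 to 4481830 counts, and 1 count was worth 0.216 to 0.773 normalised CPM (the unit of level used below, a count scaled by the TMM-adjusted size of its library). NCAM-enriched library 2 was the shallowest. It had the fewest genes with at least 5 counts (11565, against 13501 to 15638 in the others) and the highest share of mitochondrially encoded counts (1.97%, against 0.139 to 0.896%). It also stood apart in collagen: Col1a1, a chain of type I collagen, was at 11884 CPM there, at 121 and 11.1 CPM in NCAM-enriched libraries 1 and 3, and at 2597 to 5908 CPM in bulk skin. The fits of the 10 genes and of the lists of related matrix genes are therefore also given without this library. Leaving out a library for its high collagen lowers the group level of collagen genes and of genes that follow them. Calls of lower in those fits are thus partly built in and are given as a description. NCAM-enriched library 3, which stays in those fits, was itself low in Ncam1, the gene of the surface molecule used for the sort. Ncam1 was at 117, 65.7 and 13.6 CPM in NCAM-enriched libraries 1 to 3 and at 32, 49.5 and 21.7 CPM in bulk skin libraries 1 to 3.

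The 10 genes ranged in mean level from 10.2 CPM (Pdgfrb) to 2691 CPM (Sparc) in bulk skin and were uneven in the NCAM-enriched group. Their summed level was 6894, 7751 and 5322 CPM in bulk skin libraries 1 to 3, and 696, 9620 and 138 CPM in NCAM-enriched libraries 1 to 3. Sparc and Dcn (mean 2035 CPM) weighed most in the bulk skin sums, and Sparc made up 82.0% of the sum in NCAM-enriched library 2. All 10 had counts in every bulk skin library and in NCAM-enriched library 2, whereas 9 had a count in NCAM-enriched library 1 and 5 in library 3. All 10 passed the count filter. Across all 13157 genes tested, 1 of the 10 (Postn) fell in the NCAM-enriched group and 0 rose (edgeR quasi-likelihood test, Benjamini-Hochberg adjusted p of at most 0.05), against 1.55% of all genes called lower and 1.04% called higher. At an unadjusted p under 0.05, 3 of the 10 were lower and 0 higher, beside 10.2% and 8.73% of all genes tested, and DESeq2 and limma-voom also called 0 higher. In these pooled libraries, fewer cells of a type and less RNA per cell cannot be told apart.

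**Figure D1:**
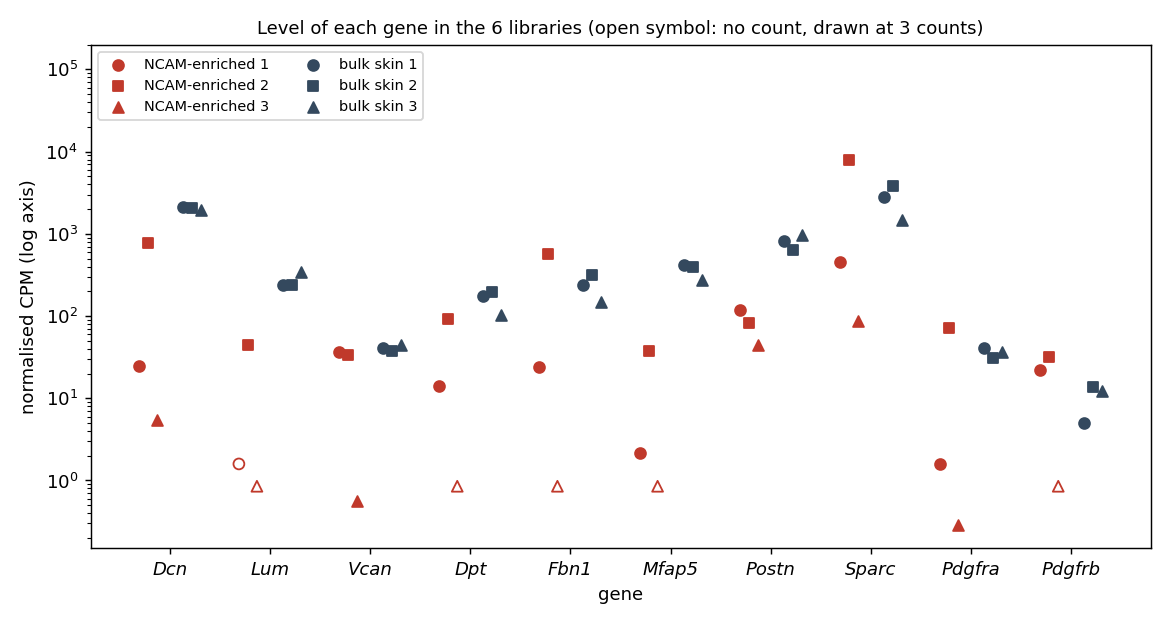
Normalised CPM (log axis) of the 10 genes in the 6 libraries, NCAM-enriched in red and bulk skin in dark blue, with the marker shape giving the library number. Open symbols mark libraries with no count, drawn at the level of 3 counts. NCAM-enriched library 2 holds the highest level of its group for 8 of the 10 genes.

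In the fit without NCAM-enriched library 2, 6 of the 10 genes were called lower: Dcn, Lum, Mfap5, Postn, Sparc and Pdgfra. The background in that fit was 4.12% of 14384 genes. The median log2 fold change of the 10 genes was -1.51 with all libraries and -4.51 without that library, beside -0.07 and -0.12 over all genes tested. With Lum set at the bound that its missing counts allow, the median without that library was also -4.51. DESeq2 called 1 of the 10 lower (Postn, background 7.05%), and limma-voom called 4 (Dcn, Lum, Mfap5 and Postn, background 6.45%). With every gene of at least 1 count in the edgeR fit, 5 were called (Dcn, Lum, Dpt, Mfap5 and Postn, background 2.66%). Groups did not overlap for 6 of the 10 genes, each lower in the NCAM-enriched group, beside 19.3% of all genes tested.

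Among the proteoglycans, Dcn and Lum were far lower in NCAM-enriched libraries 1 and 3 and less so in library 2. Dcn encodes decorin, which binds collagen fibrils and TGF-β (chromosome 10, 97479609 to 97518143, plus strand, GRCm38). Dcn was at 25.0, 774 and 5.39 CPM in NCAM-enriched libraries 1 to 3 and at 2113, 2069 and 1925 CPM in bulk skin. The groups did not overlap, and bulk skin varied little (SD 98.4 CPM on a mean of 2035, n = 3) while the NCAM-enriched group had an SD of 438 on a mean of 268. Fitted over all libraries, Dcn had a log2 fold change of -2.93 ± 1.42 (SE, edgeR adjusted p = 0.311). Leaving out NCAM-enriched library 2 moved it to -7.13 ± 0.77 (adjusted p = 0.00195).

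Lum encodes lumican, a keratan sulphate proteoglycan that sets the spacing of collagen fibrils. It is the next of these genes along the same strand of chromosome 10 (97565128 to 97572703), 47.0 kb from the end of Dcn. Lum had 0, 58 and 0 counts in NCAM-enriched libraries 1 to 3 and 776, 1112 and 1256 counts in bulk skin, or 0, 44.8 and 0 CPM against 241, 240 and 344 CPM. All of its NCAM-enriched counts thus came from library 2, which lay below every bulk skin library. Its log2 fold change was -4.29 ± 1.58 (edgeR adjusted p = 0.182). Without that library the group had no count, so Lum was at least 493-fold lower against a floor of 3 counts over both remaining libraries (edgeR adjusted p = 0.00056). Dcn had 8.77, 8.61 and 5.59 counts for each count of Lum in bulk skin and 17.3 in NCAM-enriched library 2.

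Vcan encodes versican, a large proteoglycan that binds hyaluronan (chromosome 13, 89655312 to 89742509, minus strand). It behaved differently from Dcn and Lum: Vcan was at 36.1, 33.2 and 0.568 CPM in NCAM-enriched libraries 1 to 3 and at 40.7, 37.8 and 44.1 CPM in bulk skin. NCAM-enriched libraries 1 and 2 lay just below the bulk skin range, and library 3 held 2 counts. The difference in Vcan was smaller than its own error (log2 fold change -0.82 ± 1.08, edgeR adjusted p = 0.750), and Vcan was called under none of the 14 alternatives (adjusted p from 0.184 to 0.871). Leaving out NCAM-enriched library 2 gave -1.20 ± 1.13 (adjusted p = 0.573).

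Dpt encodes dermatopontin, a small matrix protein that binds decorin (chromosome 1, 164796644 to 164824266, plus strand). It was at 14.3, 91.2 and 0 CPM in the NCAM-enriched libraries and at 174, 196 and 102 CPM in bulk skin. The groups did not overlap, but NCAM-enriched library 2 was close to the lowest bulk skin library. Dpt had a log2 fold change of -2.19 ± 1.32 (edgeR adjusted p = 0.427). Leaving out NCAM-enriched library 2 gave -4.61 ± 1.19 (adjusted p = 0.0522).

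The microfibril genes Fbn1 and Mfap5 differed from each other in NCAM-enriched library 2 and, on few counts, in library 1. Fbn1 encodes fibrillin-1, the core of the microfibril (chromosome 2, 125300594 to 125507993, minus strand). Fbn1 was at 23.9, 563 and 0 CPM in NCAM-enriched libraries 1 to 3 and at 237, 319 and 149 CPM in bulk skin. Library 2 was above every bulk skin library and the other NCAM-enriched libraries below all of them, so the groups overlapped (log2 fold change -0.27 ± 1.54, edgeR adjusted p = 0.951; -4.41 ± 1.26 and 0.0697 without library 2). Of the exonic bases of Fbn1, 20.1% are shared with Gm9913 on the other strand, whose reads cannot be told apart from those of Fbn1 in a method that does not mark strand.

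Mfap5 encodes a glycoprotein bound to fibrillin microfibrils (chromosome 6, 122505845 to 122529290, plus strand). It had 4, 49 and 0 counts in the NCAM-enriched libraries and 1352, 1831 and 1014 counts in bulk skin, or 2.13, 37.9 and 0 CPM against 420, 396 and 278 CPM. Unlike Fbn1, its level in NCAM-enriched library 2 was 9.63-fold below the bulk skin mean. Mfap5 had a log2 fold change of -4.87 ± 1.39 (edgeR adjusted p = 0.0923). It was called when NCAM-enriched library 2 was left out (-8.77 ± 0.90, adjusted p = 0.00174) and when library 3 was (adjusted p = 0.0413). Fbn1 had 0.565, 0.806 and 0.536 counts for each count of Mfap5 in bulk skin, and 14.9 in NCAM-enriched library 2. The ratio was 11.2 in NCAM-enriched library 1, from 45 counts of Fbn1 and 4 of Mfap5.

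Postn, which encodes the integrin-binding matrix protein periostin (chromosome 3, 54361109 to 54391037, plus strand), was the single gene of the 10 that fell. It was at 120, 81.9 and 44.0 CPM in NCAM-enriched libraries 1 to 3 and at 822, 638 and 968 CPM in bulk skin. The groups did not overlap, and NCAM-enriched library 2 lay between the others of its group. Postn fell by 3.31 ± 0.48 on the log2 scale (edgeR adjusted p = 0.0162), and its log2 fold change was -3.33 ± 0.53 with NCAM-enriched library 2 left out (adjusted p = 0.00832). Postn was called under 11 of the 14 alternatives and lost without bulk skin library 1, 2 or 3 (adjusted p of 0.101, 0.0784 and 0.0904), at log2 fold changes of -3.35, -3.52 and -3.23.

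Sequence just before the RefSeq gene start (GRCm38.p6) is shown for 3 of the genes that behaved differently, Postn, Vcan and Pdgfra. RefSeq entries were found for 6 of the 10 genes, and these 3 are the ones with a start whose preceding 60 bases hold no GENCODE exon. The windows are chr3:54361047-54361106 (plus strand), chr13:89742513-89742572 (minus strand) and chr5:75152191-75152250 (plus strand), written 5′ to 3′ with the TATA-box letters TATAAA in capitals.
Postn: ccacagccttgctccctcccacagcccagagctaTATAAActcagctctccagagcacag
Vcan: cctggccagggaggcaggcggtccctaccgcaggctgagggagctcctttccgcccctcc
Pdgfra: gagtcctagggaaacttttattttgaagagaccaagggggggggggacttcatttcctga
The letters TATAAA were searched on both strands in the 250 bases before each start, and 12.4% of 32851 RefSeq windows held them. Among the 7 windows of the 6 genes with an entry, 1 did: that of Postn, 26 bases before its start. A second RefSeq start of Postn lies upstream on the same strand, so the Postn window shown falls downstream of that start, and the window before it did not hold these letters.

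Sparc encodes a collagen-binding matricellular protein (chromosome 11, 55394500 to 55423183, minus strand) and was the most abundant of the 10 genes per exonic length in both groups. It was at 451, 7891 and 88.0 CPM in NCAM-enriched libraries 1 to 3 and at 2800, 3810 and 1464 CPM in bulk skin. NCAM-enriched library 2 lay above every bulk skin library and the other NCAM-enriched libraries below all of them. Its log2 fold change was near 0 and imprecise (0.06 ± 1.26, edgeR adjusted p = 0.986), and became -3.34 ± 0.77 without library 2 (adjusted p = 0.0362). Sparc made up 40.6, 49.2 and 27.5% of the summed counts of the 10 genes in bulk skin. Its share was 64.9, 82.0 and 63.7% in NCAM-enriched libraries 1 to 3, each above every bulk skin library. For each count of Postn, Sparc had 3.41, 5.97 and 1.51 counts in bulk skin, 3.77 and 2 in NCAM-enriched libraries 1 and 3, and 96.3 in library 2.

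The PDGF receptors were present at low levels and split from each other in NCAM-enriched library 1. Pdgfra (chromosome 5, 75152292 to 75198215, plus strand) was at 1.59, 71.1 and 0.284 CPM in NCAM-enriched libraries 1 to 3, from 3, 92 and 1 counts, and at 41.0, 30.7 and 36.7 CPM in bulk skin. Library 2 exceeded every bulk skin library, with the log2 fold change at -0.59 ± 1.44 (edgeR adjusted p = 0.877) and at -5.40 ± 0.95 without it (adjusted p = 0.0131). Non-coding genes on the other strand and a microRNA on the same strand share 6.50% of the exonic bases of Pdgfra.

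Pdgfrb had 41, 41 and 0 counts in NCAM-enriched libraries 1 to 3 and 16, 63 and 44 counts in bulk skin, or 21.8, 31.7 and 0 CPM against 4.97, 13.6 and 12.1 CPM. It was thus the only one of the 10 genes above every bulk skin library in NCAM-enriched library 1. The log2 fold change was 0.79 ± 1.47 (edgeR adjusted p = 0.837) and 0.05 ± 1.54 without library 2 (adjusted p = 0.990), and no alternative called it. The 10 markers of pericytes and smooth muscle summed to 520, 312 and 249 CPM in NCAM-enriched libraries 1 to 3 and 241 to 290 CPM in bulk skin. They did not move together. Myh11, a smooth muscle myosin, was at 188, 10 and 2.55 CPM against 102 to 117 CPM, Notch3 at 150, 46.4 and 189 CPM against 9.31 to 46.6 CPM, and Cspg4, a proteoglycan of pericytes, at 132, 219 and 49.4 CPM against 78.2 to 95.1 CPM. Rgs5, a defining pericyte marker, had 10 counts in 1 bulk skin library and none in the other 5 libraries, and Higd1b had none in any. The part of such cells in the Pdgfrb values was not tested.

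**Figure D2:**
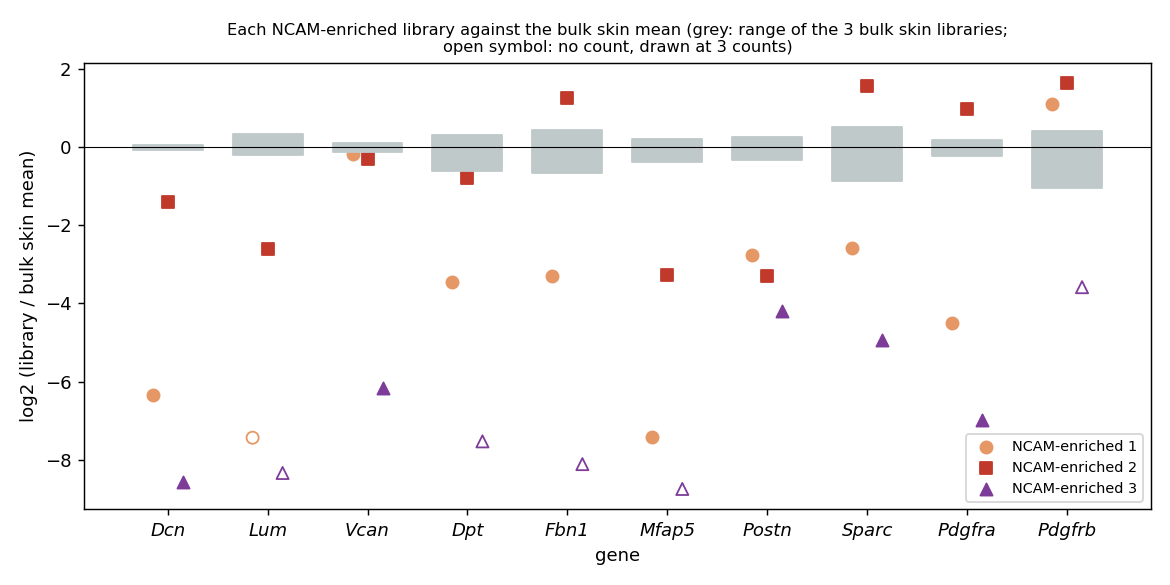
The log2 ratio of each NCAM-enriched library to the bulk skin mean for each gene, with the range of the 3 bulk skin libraries in grey. Open symbols mark no count and are drawn at 3 counts. Library 2 lies above the bulk skin range for Fbn1, Sparc, Pdgfra and Pdgfrb and below it for the other 6 genes, whereas library 3 lies below it for all 10.

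**Figure D3:**
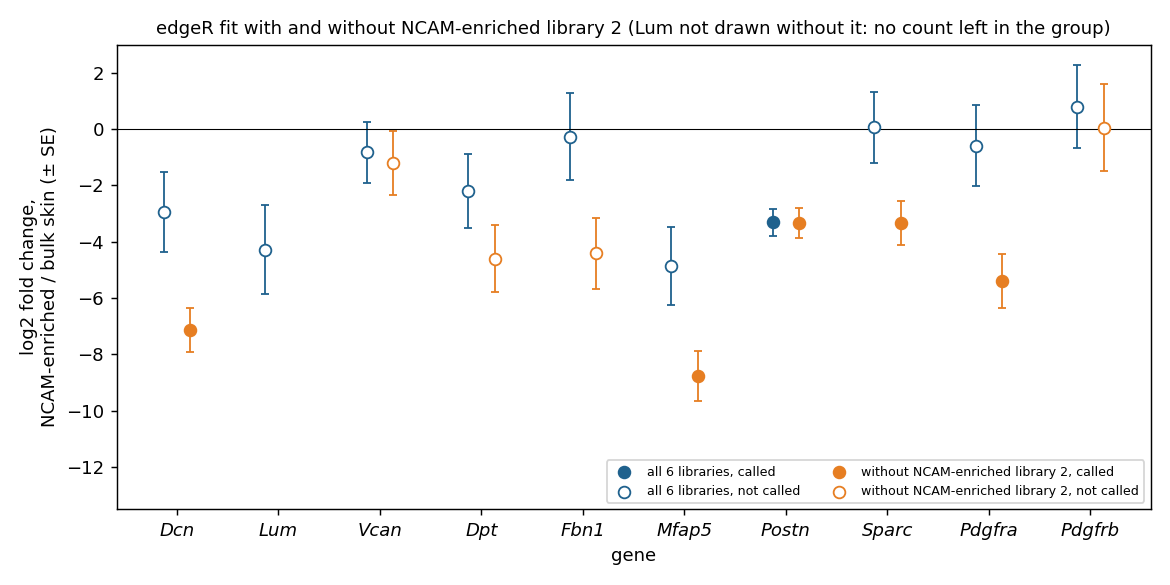
Fitted log2 fold changes (NCAM-enriched over bulk skin, ± SE) of the 10 genes with all 6 libraries and without NCAM-enriched library 2, where filled symbols mark an edgeR adjusted p of at most 0.05. Only Postn is filled in both fits, and Lum is not drawn without library 2 because its group then had no count.

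Per kilobase of exon (GENCODE M21), Sparc was the most abundant of the 10 genes in bulk skin and Pdgfrb the least. Sparc averaged 711 ± 311 CPM per kb (SD, n = 3), followed by Dcn at 349 ± 16.9. Lum (112 ± 24.5), Mfap5 (102 ± 21.1), Postn (93.0 ± 19.0) and Dpt (91.2 ± 28.6) came next, and each overlapped its neighbour in that order. Fbn1 followed at 19.4 ± 7.01 CPM per kb, then Pdgfra at 3.61 ± 0.516, Vcan at 2.83 ± 0.219 and Pdgfrb at 1.87 ± 0.842, and the 3 libraries of each of these genes lay apart from those of the next. The last steps were near ties: the lowest Pdgfra library was at 3.06 and the highest Vcan library at 3.05 CPM per kb. The lowest Vcan library was at 2.62 and the highest Pdgfrb library at 2.49 CPM per kb. In the NCAM-enriched group every neighbouring pair overlapped, from Sparc at 742 ± 1163 CPM per kb down to Vcan at 1.61 ± 1.37.

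The coefficient of variation among the 3 bulk skin libraries was between 4.83% (Dcn) and 45.1% (Pdgfrb). Among the NCAM-enriched libraries it was between 46.2% (Postn) and 173% (Lum). NCAM-enriched library 2 contributed 86.4 to 100% of the group's summed CPM for Dcn, Lum, Dpt, Fbn1, Mfap5, Sparc and Pdgfra, but 33.4% for Postn, 47.5% for Vcan and 59.3% for Pdgfrb. Over the 6 libraries, Pearson's r of log2 CPM was highest between Mfap5 and Dcn (0.99), followed by Lum with Dcn and Fbn1 with Dpt (both 0.98), and lowest between Pdgfrb and Postn (0.39). These correlations describe 6 points that share their library depth and the contrast between groups.

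NCAM-enriched library 2 was not a scaled copy of bulk skin in these genes. Relative to collagen in the same library, 6 of the 10 genes were below all 3 bulk skin libraries in library 2. This held whichever of Col1a1, Col1a2 or Col3a1 was the reference. They were Dcn, Lum, Vcan, Dpt, Mfap5 and Postn, the same genes that lay below every bulk skin library there in CPM. Col1a1 and Col1a2 were above every bulk skin library in library 2, so the low ratios to these collagens were fixed in advance. Col3a1 was at 4839 CPM there, inside the bulk skin range of 3074 to 4986 CPM. For each 100 counts of Col1a1, Dcn had 6.51 counts in library 2 against 55.4 ± 19.6 (SD, n = 3) in bulk skin. Postn had 0.689 against 23.4 ± 13.3, and Mfap5 0.319 against 9.59 ± 2.53. Sparc kept a similar ratio, at 66.4 against 65.6 ± 9.77 counts per 100 of Col1a1, but was below bulk skin per Col1a2 (51.3 against 74.9 ± 12.5) and above it per Col3a1 (163 against 65.3 ± 15.5). With a single library on the NCAM-enriched side, these ratios are a description with no replicate check.

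**Figure D4:**
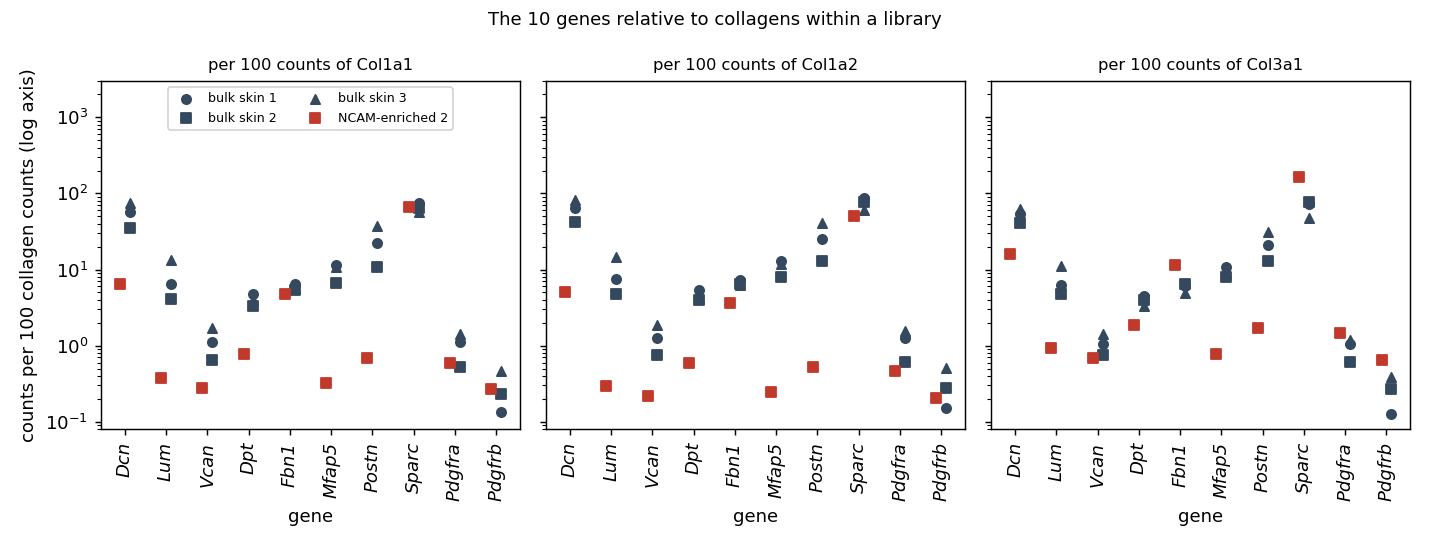
Counts of each gene per 100 counts of Col1a1, Col1a2 or Col3a1 (log axis) in NCAM-enriched library 2 (red squares) and in the 3 bulk skin libraries (dark blue). Dcn, Lum, Vcan, Dpt, Mfap5 and Postn of library 2 lie below all bulk skin points in each panel, by 4.10-fold (Vcan) to 34.0-fold (Postn) of the bulk skin mean per Col1a1. For Col1a1 and Col1a2 this position follows from the CPM levels of the genes and of these collagens.

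Other genes of the same matrix gave few calls. Of 75 related genes in 6 lists, 60 were tested, 2 fell and 0 rose (edgeR, background 1.55% lower and 1.04% higher). At an unadjusted p under 0.05, 9 of the 60 were lower and 0 higher, beside 10.2% and 8.73% of all genes tested, and their log2 fold changes had a median of -0.33. When NCAM-enriched library 2 was left out, 16 of 63 fell and 1 rose (background 4.12% lower), with a median of -1.82. The 2 genes that fell with all libraries were Efemp1 and Has1.

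Among 10 tested small leucine-rich proteoglycans besides Dcn and Lum, 0 were called by edgeR (3 lower and 0 higher at an unadjusted p under 0.05), 2 lower by DESeq2 and 4 lower by limma-voom, and the median log2 fold change was -1.85. Leaving out NCAM-enriched library 2, 5 of 10 fell (median -4.72, or -4.54 with genes that had no count at their bound), Fmod, Kera and Aspn among them. Kera (keratocan), which neighbours Lum on chromosome 10 with a gap of 34.2 kb, had 0, 0 and 0 counts in the NCAM-enriched libraries and 38, 46 and 53 in bulk skin (at least 26.6-fold lower, edgeR adjusted p = 0.0656), and Epyc, the next gene, had no count in any library. Fmod (fibromodulin, which binds collagen) had 8, 0 and 0 counts against 283, 414 and 130 (adjusted p = 0.0653). Aspn (asporin), the most abundant of the list per length over the 6 libraries, was at 0, 100 and 0.568 CPM against 145, 132 and 207 CPM (adjusted p = 0.481, and 0.000842 without NCAM-enriched library 2). As with Lum, nearly all of its NCAM-enriched counts came from library 2.

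Of 20 tested microfibril and elastic fibre genes besides Fbn1 and Mfap5, 1 fell and 0 rose, with a median log2 fold change of -0.14. With NCAM-enriched library 2 left out, 4 of 20 fell and 0 rose, with a median of -1.56. Efemp1, which encodes fibulin-3, was at 35.1, 13.9 and 45.4 CPM in the NCAM-enriched libraries and at 262, 279 and 143 CPM in bulk skin (log2 fold change -2.84 ± 0.53, edgeR adjusted p = 0.0319). Like Postn, it was low in all 3 NCAM-enriched libraries, and its call was lost with any 1 bulk skin library left out, without NCAM-enriched library 1 (adjusted p = 0.0739) and with a replicate block (adjusted p = 0.0767), but not without NCAM-enriched library 2 (adjusted p = 0.0120). Emilin1, an elastin-associated glycoprotein, had no count in the NCAM-enriched group and 59, 90 and 30 counts in bulk skin (at least 34.8-fold lower, adjusted p = 0.0609, and 0.0325 without NCAM-enriched library 2). Mfap2, another microfibril glycoprotein, was at 39.3, 123 and 1.14 CPM against 216, 317 and 165 CPM (adjusted p = 0.342).

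Of 11 genes for other hyaluronan-binding proteoglycans, link proteins, hyaluronan synthases and the hyaluronan receptor, 2 passed the count filter and 1 fell. Has1, a hyaluronan synthase, had 2, 0 and 0 counts in the NCAM-enriched libraries and 81, 385 and 90 in bulk skin (edgeR adjusted p = 0.0414), a ratio of 162 (95% exact counting interval 44.7 to 1341), and this call was also lost with a replicate block (adjusted p = 0.102) and with any 1 bulk skin library left out. It held without NCAM-enriched library 2 (adjusted p = 0.0195), where Has1 was the 1 gene of 3 tested that fell. Cd44, the hyaluronan receptor, was at 402, 1071 and 437 CPM against 810, 681 and 976 CPM (adjusted p = 0.741).

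Of 16 tested matricellular genes besides Postn and Sparc, 0 were called by edgeR (2 lower and 0 higher at an unadjusted p under 0.05), 1 lower by DESeq2 and 2 lower by limma-voom, with a median log2 fold change of 0.05. Leaving out NCAM-enriched library 2, 1 of 17 fell and 1 rose (median -0.20). Smoc2, a relative of Sparc, was at 25.0, 1.55 and 125 CPM against 304, 263 and 210 CPM (edgeR adjusted p = 0.264), and Sparcl1, the closest relative, at 0, 2.32 and 5.11 CPM against 44.7, 48.4 and 21.9 CPM (adjusted p = 0.116). Both were thus low in NCAM-enriched library 2, where Sparc was high. Ccn1, an integrin-binding growth regulator, was at 765, 123 and 409 CPM against 109, 235 and 193 CPM (adjusted p = 0.315).

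None of 4 tested genes of the PDGF ligand list was called by edgeR (median log2 fold change -0.30), and the count was also 0 at an unadjusted p under 0.05, with DESeq2, with limma-voom, and for the 5 genes tested by edgeR without NCAM-enriched library 2 (median -0.96). Pdgfa, a ligand of PDGFRα, was even across all libraries, at 86.6, 95 and 112 CPM in the NCAM-enriched group and 119, 119 and 114 CPM in bulk skin. Pdgfb, a ligand of both receptors, was at 9.56, 5.41 and 37.2 CPM against 75.4, 76.3 and 31.5 CPM (adjusted p = 0.278). Of 8 fibrillar and type VI collagen genes, 0 were called by edgeR with all libraries, 0 by DESeq2 and 4 lower by limma-voom. At an unadjusted p under 0.05 edgeR gave 0, and the median log2 fold change was -0.98. With NCAM-enriched library 2 left out, 5 fell by edgeR (median -4.15). Col1a1 was a reason to set that library apart, so this count is not an independent result. Col5a2 was at 15.9, 315 and 5.11 CPM against 220, 261 and 216 CPM, and Col6a1 at 134, 304 and 0.284 CPM against 342, 476 and 299 CPM.

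The genes outside the lists whose log2 CPM followed the mean profile of the 10 genes most closely over the 6 libraries were Pitpnc1, a phosphatidylinositol transfer protein (Pearson's r = 0.9989), Adgrd1, an adhesion G protein-coupled receptor (0.9943), Tox, an HMG-box factor (0.9937), Inmt, a methyltransferase (0.9933), and Fzd1, a Wnt receptor (0.9920). Pitpnc1 was at 13.8, 60.3 and 2.55 CPM in the NCAM-enriched libraries and 76.4, 68.7 and 68.0 CPM in bulk skin. Inmt rested on at most 26 counts in any library. None of the 5 was called with all libraries (edgeR adjusted p from 0.435 to 0.651). Leaving out NCAM-enriched library 2, 3 of the 5 were called lower by edgeR, beside 4.12% of all genes tested. They were Pitpnc1 (-3.19, adjusted p = 0.0350), Adgrd1 (-5.26, 0.0141) and Tox (-2.85, 0.0395). All 5 were picked for a profile low in NCAM-enriched libraries 1 and 3, so these calls were largely fixed by the choice. The r values are the highest among all tested genes over 6 points, and are given as a description.

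Markers of other cell types were read in the same libraries. All 15 dermal fibroblast markers had counts in every library of the bulk skin group, a preparation of epidermis, with a summed level of 8751 to 17117 CPM. In the NCAM-enriched libraries that sum was 519, 32973 and 93.1 CPM, and Col1a1, Col1a2 and Col3a1 made up 97.4% of it in library 2. The other 12 markers summed to 182, 861 and 57.0 CPM in the NCAM-enriched libraries and to 1173, 1259 and 701 CPM in bulk skin, so that library 2 lay inside the bulk skin range without those 3 collagens. Twist2, a transcription factor of the dermal lineage, had no count in any NCAM-enriched library, and Mgp and C1s1 had none in library 2. Of the 15 markers, 0 were called by edgeR with all libraries (background 1.55% lower and 1.04% higher). At an unadjusted p under 0.05, 4 were lower and 0 higher (background 10.2% and 8.73%). DESeq2 called 2 lower (background 7.05%) and limma-voom called 5 (background 6.45%). Without library 2, 7 fell by edgeR (background 4.12%). Col1a1, Col1a2 and Col3a1 are among these 7, so that count is partly built in by leaving out the library high in collagen. Col1a1, Col1a2 and Col3a1 are on both this list and the collagen list. Merkel cell markers, the cells the sort aimed at, summed to 1569, 1674 and 482 CPM in the NCAM-enriched libraries and 133 to 186 CPM in bulk skin, so library 2 held them at the level of library 1. The part of any cell type in the levels of the 10 genes was not tested.

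The other marker lists are given by their sums. Endothelial markers summed to 14.8 to 36.3 CPM in the NCAM-enriched group and 68.6 to 129 CPM in bulk skin, and 7 or 8 of the 10 markers had no count in each NCAM-enriched library. Within that list Tie1, an endothelial receptor, was at 24.0 CPM in NCAM-enriched library 2 against 1.24 to 6.27 CPM in bulk skin. Pericyte and smooth muscle markers summed to 249 to 520 against 241 to 290 CPM, dermal papilla markers to 5.68 to 158 against 109 to 140 CPM, and Schwann cell markers to 13.9 to 128 against 97.1 to 138 CPM. Melanocyte markers reached 142 CPM in NCAM-enriched library 2, against a sum of 10.6 to 35.4 CPM in bulk skin, and came there from Mitf (73.4 CPM), Dct (64.1 CPM) and 6 counts of Tyr, while the other 4 of 7 markers had no count. Adipocyte markers summed to 1.59 to 38.0 against 27.2 to 43.3 CPM and skeletal muscle markers to 13.3 to 282 against 31.4 to 35.9 CPM. Acta1, a muscle actin with no count in bulk skin, made up 264 CPM of the highest muscle sum (library 1) and all 160 CPM in library 2 and rose (edgeR adjusted p = 0.0370), whereas Tnni2, a troponin, had no count in the NCAM-enriched group and fell (adjusted p = 0.0470).

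T cell markers summed to 5.85, 237 and 57.9 CPM in the NCAM-enriched libraries, against 3742 to 4063 CPM in bulk skin. In NCAM-enriched library 2, Thy1, which fibroblasts also express, made up 166 CPM of the sum and Cd7 68.8 CPM. The source of these counts was not tested. Langerhans and myeloid markers summed to 24.0 to 309 against 9693 to 16871 CPM, basal keratinocyte markers to 7129 to 30792 against 11854 to 16282 CPM, and suprabasal keratinocyte markers to 12803 to 32682 against 1254 to 1443 CPM.

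**Figure D5:**
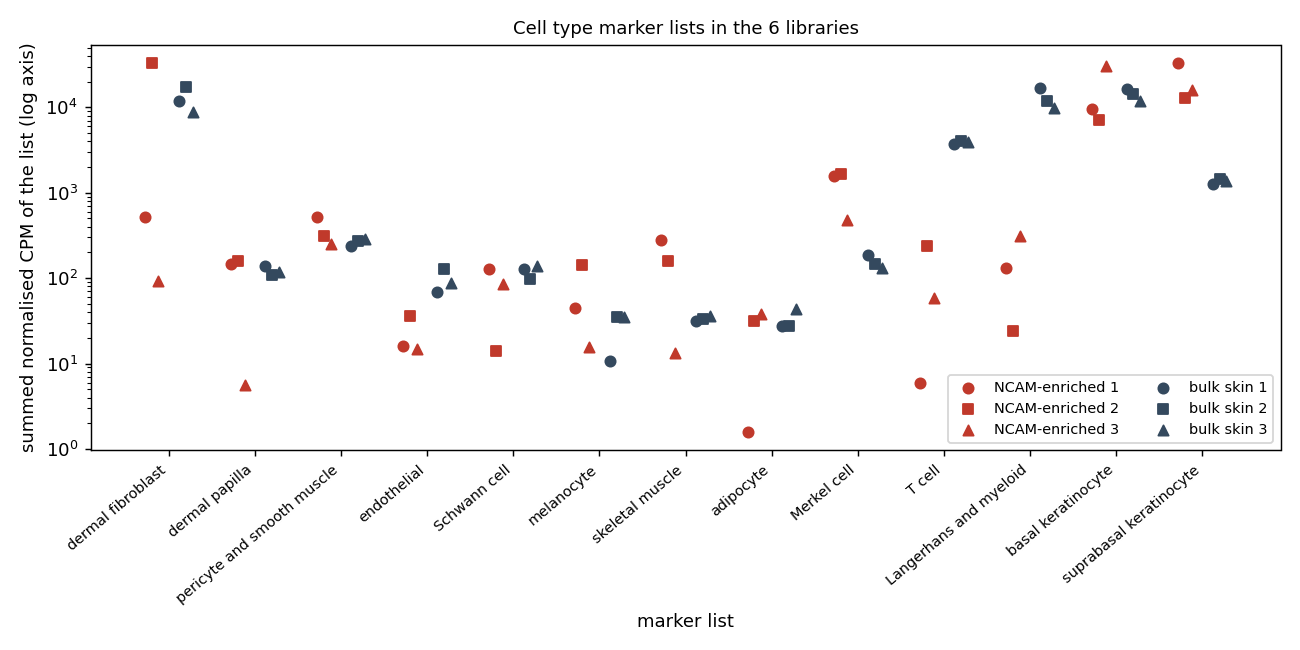
Summed normalised CPM (log axis) of each cell type marker list in the 6 libraries, NCAM-enriched in red and bulk skin in dark blue. The dermal fibroblast list spans 93.1 to 32973 CPM among the NCAM-enriched libraries, with libraries 1 and 3 below all bulk skin libraries. Library 2 lies above them, with 97.4% of its sum in Col1a1, Col1a2 and Col3a1.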

How the data were processed

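Smart-seq2 libraries of NCAM-enriched and bulk skin cells (3 each) were compared. Raw gene-level read counts were deposited, made by the authors by clipping adapters and polyA, removing abundant sequences, aligning to GRCm38 with STAR and counting with featureCounts. The sources used here give neither annotation release nor strand setting. Gene positions and exonic lengths came from GENCODE M21, in which 54495 of 54532 gene IDs were found.

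Groups came from the labels and were compared with edgeR 4.0.16 in R 4.3.3 (filterByExpr, TMM factors, quasi-likelihood F-test) with Benjamini-Hochberg adjustment over 13157 genes, and calls were made at an adjusted p of at most 0.05. SE was taken as the size of the log2 fold change over √F. Intervals and floors cover counting error only, since reads carry no molecular identifiers, and a floor of 3 counts was used where a group had none. Alternatives were DESeq2 1.42.0, limma-voom (limma 3.58.1), RLE factors, library totals, looser and stricter count filters, a robust fit, a replicate block and leaving out each library. Figures were drawn with matplotlib 3.10.9.

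The 10 genes and all lists were chosen with earlier results of these data known. Named genes were the 10 genes, the 2 smallest p and the most abundant per length of each related list, and the 5 closest profiles. Named outside this rule, after their values were seen, were Ncam1, Epyc, Col1a2, Col3a1, Eln, Lox, Loxl1, Mfap4, Bgn, Spock2 and the cell type markers.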

Additional observations from a re-analysis of the deposited data

How the results depend on the processing

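Beyond the single edgeR call of Postn, the number of the 10 genes called lower was 4 with limma-voom, 5 with all genes of at least 1 count, and 0 to 6 without a single library (0 without bulk skin library 1, 2 or 3, where Postn was lost, 2 without NCAM-enriched library 3 and 6 without NCAM-enriched library 2). No gene of the 10 was called higher under any of the 14 alternatives. The related matrix genes called lower, 2 of 60 with all libraries, were 6 with DESeq2 (background 7.05%) and 14 with limma-voom (background 6.45%). They were 14 of 70 with all genes of at least 1 count (background 2.66%), 0 with a replicate block, and 0 to 16 without a single library. Those called higher were 0 to 1 without a single library, the 1 being Ccn1 without NCAM-enriched library 2 and Spock2 without NCAM-enriched library 3. The difference in summed level of the 10 genes (-3171 CPM) ran from -6239 to -1498 CPM without a single library. The cause was not tested.

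Sparc, not called and at a log2 fold change of 0.06, was at -2.01 with limma-voom, at -0.16 with all genes of at least 1 count, at -2.06 with the replicate block, and from -3.34 to 0.54 without a single library. Fbn1 (-0.27) ran from -4.41 to 0.22 without a single library, Pdgfrb (0.79) was at -1.39 with limma-voom, and Col1a1 (-0.02) was at 0.03 with DESeq2, at 0.03 with RLE factors and from -5.97 to 0.51 without a single library. Over all genes the median, -0.07, shifted to -0.37 under limma-voom and to -0.36 under the block. Deviations from the group mean correlated at 0.0214, -0.000753 and 0.00549 between libraries of the same replicate number, so the numbers were not treated as pairs. With the block Postn stayed called (adjusted p = 0.0308).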

Other observations

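NCAM-enriched library 2 placed other matrix genes on both sides of bulk skin. Among 60 related matrix genes tested, 31 were above every bulk skin library in it, 21 below and 8 between, beside 33.1% above and 50.2% below over all genes tested. The 31 include 5 of the 8 collagen genes, Col1a1 among them. Library 2 was set apart for its high collagen, so the count above bulk skin is partly built in. Of the 20 tested microfibril and elastic fibre genes, 11 were above, 7 below and 2 between. Eln, Lox, Loxl1 and Mfap4, given next, are taken from those above. Eln, which encodes elastin, was at 841 CPM in library 2 against 131 to 143 CPM in bulk skin, with 68.0 and 0.568 CPM in NCAM-enriched libraries 1 and 3. Lox, the enzyme that cross-links collagen and elastin, was at 121 CPM against 3.02 to 20.2 CPM, and Loxl1, its relative, at 287 CPM against 101 to 165 CPM. Mfap4, a microfibril-associated glycoprotein, was at 172 CPM against 10.2 to 18.9 CPM, with no count in the other NCAM-enriched libraries. Among the small leucine-rich proteoglycans, Bgn (biglycan) was at 550 CPM in library 2 against 226 to 269 CPM in bulk skin, where Dcn and Lum were below the bulk skin range. None of these 5 genes was called by edgeR over the groups, and all were singled out after their values were seen. These values come from 1 library and have no replicate check.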
